A study of Mus musculus with 28 samples.

Results

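The response to siRNAs against an epitope tag was compared between mouse cells whose cyclin D1 carried the tag and cells whose cyclin D1 did not. It was defined as the mean of the FLAG and HA siRNAs minus the control siRNA labelled SCR, and the response of the untagged clones was subtracted from that of the tagged clones. The comparison used 12 of the 28 RNA-seq libraries of the series. All came from embryonic fibroblasts of mouse strain C57BL/6x129Sv that had been transformed by RAS together with DNP53. Tagged clones 12 and 14, which the labels call Ctag-Cyclin D1, and untagged clones 25 and 18 each gave 1 library per siRNA after overnight lipid transfection. No group held more than 2 libraries, 1 per clone, so the p-values cover only how single libraries scatter about clone and siRNA levels. What the n of 3 or 4 in the titles counts is not stated in the labels.

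Cyclin D1 is the regulatory subunit of the kinases CDK4 and CDK6. In G1 phase these kinases phosphorylate the retinoblastoma protein RB1 and its relatives RBL1 and RBL2, which releases E2F transcription factors to switch on genes of DNA replication. The CDKN1 and CDKN2 proteins restrain the kinases, and RAS signalling raises cyclin D1 synthesis in fibroblasts. An siRNA against the tag can cut the tagged transcript only where the tag is present, so the untagged clones received the same siRNAs without that target. Tagged and untagged cells are also different clones, so the tag and the clone it sits in cannot be told apart.

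Totals in the 12 libraries ran from 26558256 to 81512769 counts, with 14132 to 16311 genes detected. The tagged SCR library of clone 12 stood apart: its total was the highest, its number of detected genes the lowest, and 305 genes were at 0 counts where at least 10 were predicted from its clone's other libraries. The other 11 libraries had at most 9 such genes. Ribosomal Rn45s passed 2% of counts in 1 library, tagged HA clone 12. All 10 fibroblast markers reached a mean of 1 CPM (counts scaled by library size), with Vim at 5696 and Col1a1 at 300 CPM. Col1a2, a collagen chain that fibroblasts normally secrete, was between 0.229 and 1.63 CPM in clone 14. In clone 12 it was between 2012 and 2304 CPM and in the untagged clones between 636 and 1478 CPM. Of the markers of other cell types, the simple-epithelial keratins Krt18 and Krt19 averaged 745 and 626 CPM, Cdh1 and Krt8 9.02 and 3.12 CPM, and Epcam 0.213 CPM. Of the 6 neural markers 4 reached 1 CPM, with Nes at 204, Sox2 at 36.7, Tubb3 at 11.0 and Map2 at 6.50 CPM, and of the 5 myogenic markers 1 did, Des at 2.71 CPM. None of the 5 endothelial and 1 of the 6 macrophage markers reached 1 CPM, and the macrophage genes Emr1 and Lyz2 were at 0 in all 12 libraries. No marker of any of these cell types was called in the comparison. Among those averaging 1 CPM or more, the smallest edgeR unadjusted p were for Tubb3 at a log2 difference of 0.82 (p 0.0024), Nes at -0.39 (p 0.035) and Cdh1 at 0.93 (p 0.038). The endothelial marker Kdr, averaging 0.21 CPM, differed by -2.90 (edgeR unadjusted p 0.037). Their part in the results below was not tested.

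Ccnd1, the cyclin D1 gene (gene 12443, chr7:144929931-144939831 in GRCm38.p6, protein coding), was strongly lower with tag siRNA where the tag was present. In tagged clone 12 it measured 1128 CPM with SCR against 181 (FLAG siRNA) and 222 CPM (HA siRNA). In tagged clone 14 the values were 1287, 131 and 219 CPM. Both siRNAs left 10.2% to 19.7% of the SCR level in the tagged clones. Untagged clone 25 measured 1313, 1226 and 1256 CPM under SCR, FLAG and HA siRNA. Untagged clone 18 measured 1330, 1014 and 1293 CPM, the FLAG value being 76.3% of SCR and the lowest of the untagged libraries. The tagged libraries with tag siRNA lay below all 8 other libraries, with no overlap. In bulk RNA such values cannot tell fewer cells that express a gene from less RNA per cell.

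**Figure D1:**
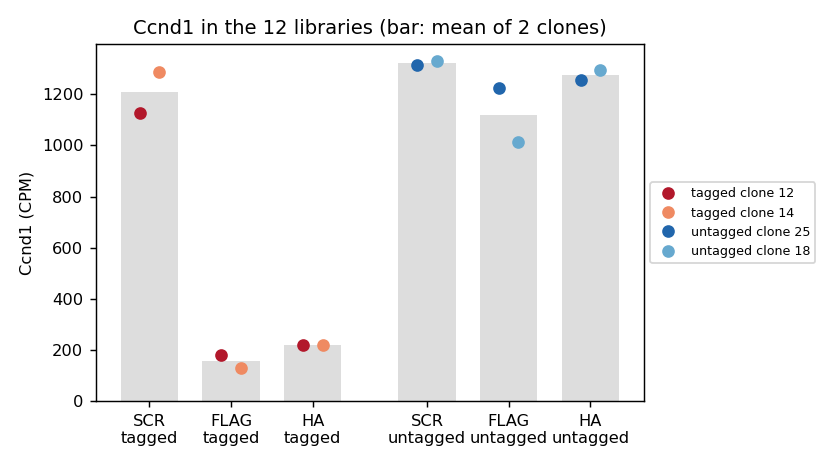
Ccnd1 in CPM for each of the 12 libraries, by siRNA (SCR, FLAG, HA) in tagged and untagged clones. Points are single libraries coloured by clone and bars are the mean of 2 clones. The 4 tagged libraries with tag siRNA lie between 131 and 222 CPM, and the untagged ones at 1014 CPM or above.

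The tagged response of Ccnd1 was -2.70 and the untagged response -0.15 on the log2 scale. Their difference was -2.55 (SE 0.28, 95% interval -3.15 to -1.96), a 5.87-fold lower response, with an edgeR quasi-likelihood adjusted p of 0.000804. FLAG siRNA alone gave -2.71 (adjusted p 0.00266 with edgeR) and HA siRNA alone -2.40 (adjusted p 0.0132 with edgeR). These use the same SCR libraries. The call was lost when untagged SCR clone 25 was left out, at -2.49 and an edgeR adjusted p of 0.0664. Without the clone block the pooled difference was -2.56 with an edgeR adjusted p of 0.00677, and HA siRNA alone made 0 calls, with 71 genes at an unadjusted p under 0.05. The 3 siRNAs against cyclin D1 itself gave -3.51 in the tagged clones, against the same tagged SCR libraries. Clone 18 carrying mCherry flanked by FLAG and HA was also set against clone 18 carrying mCherry alone, all with HA or FLAG siRNA. That comparison uses none of these 12 libraries, and Ccnd1 differed by 0.06 in it.

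Ccnd1 was also the 1 gene called of 15099 tested (0.00662%), at an adjusted p under 0.05, in the pooled comparison and with each siRNA alone. DESeq2 called the same gene in the pooled comparison and a second, Mgst1, a glutathione transferase, with FLAG siRNA alone. Mgst1 was nearly off in the tagged clones, at 0.02 CPM with SCR in both and 0.65 and 0.04 CPM with FLAG siRNA in clones 12 and 14. Against the untagged mean its pooled response was 2.95 in clone 12 and 0.11 in clone 14, and its tagged and untagged responses overlapped. With HA siRNA alone, edgeR made 0 calls when any 1 of 7 libraries was left out: tagged SCR clone 12, tagged HA clone 12 or 14, untagged SCR clone 18 or 25, and untagged HA clone 18 or 25. With FLAG siRNA alone, leaving out tagged FLAG clone 14 or untagged SCR clone 25 gave 0 calls. Leaving out tagged SCR clone 14 raised the pooled count, but the only tagged SCR library was then that of clone 12, which stood apart. At an unadjusted p under 0.05, 163 of the 11779 genes that averaged 1 CPM or more qualified (1.38%). The tagged response was higher for 104 of them (0.883% of the 11779) and lower for 59 (0.501%). Evenly spread p-values would put a share of 0.05 under that threshold, so the test was conservative over these genes. At 100 CPM or more the differences had an SD of 0.14 and a median SE of 0.17.

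Over the 11779 genes the difference between tagged and untagged responses had a median of 0.02 and an SD of 0.35, with 5th and 95th percentiles of -0.40 and 0.41. The 95% interval reached 0.47 to either side for the median gene, and 81.1% of intervals lay wholly between -1 and 1. A difference of at least 2-fold either way was estimated for 180 genes (1.53%), and 157 of them had a group mean under 1 CPM. Of the 2960 genes with a mean over the 12 libraries between 1 and 10 CPM, 157 reached that size. These are not the same set as the 157 with a low group mean. It was reached by 22 of 6664 genes between 10 and 100 CPM and, among 2155 genes at 100 CPM or more, by Ccnd1 only. In that highest class the tagged response itself reached 2-fold for 14 genes and the untagged response for 10. Some genes reach these classes through the untagged clones alone, such as Nnmt, with a mean of 10.9 CPM and a lowest group mean of 0.012 CPM. Among the 8087 genes with every group mean at 10 CPM or more, Ccnd1 alone reached a 2-fold difference. A larger absolute difference than that of Ccnd1 was estimated for 29 genes, all with means of 36.4 CPM or less, and 28 of them had a library at 0.

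**Figure D2:**
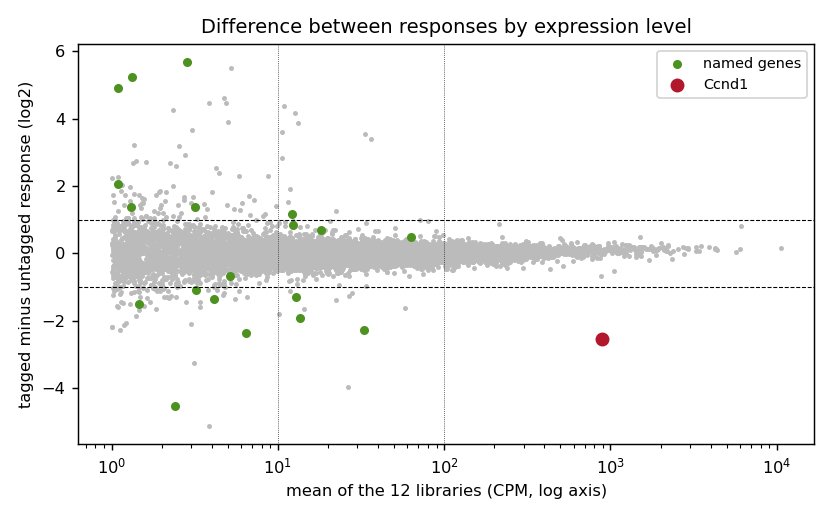
Tagged minus untagged response (log2) of each gene against its mean over the 12 libraries (CPM, log axis), with dashed lines at a 2-fold difference and dotted lines at 10 and 100 CPM. The spread narrows from an SD of 0.59 between 1 and 10 CPM to 0.14 at 100 CPM or more, where Ccnd1 (red) lies alone beyond the dashed lines; the named genes (green) are mostly of low expression.

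Across the 11779 genes the tagged and untagged responses, which share no library, had a Pearson correlation of 0.574 and a Spearman correlation of 0.694. Genes are not independent replicates, so no test is given, and the 2 responses share the siRNA sequences and the transfection. Those were fitted responses over both clones. For single clones, with responses in log2 CPM, the Pearson correlation was 0.449 between tagged clones 12 and 14 and 0.557 between untagged clones 25 and 18. The 2 measures differ, so the single-clone values are not set against 0.574. Pairs of 1 tagged and 1 untagged clone ran from 0.391 to 0.550. Clone 12 had the widest responses, with an SD of 0.48 over genes, and clone 25 the narrowest, with 0.31.

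**Figure D3:**
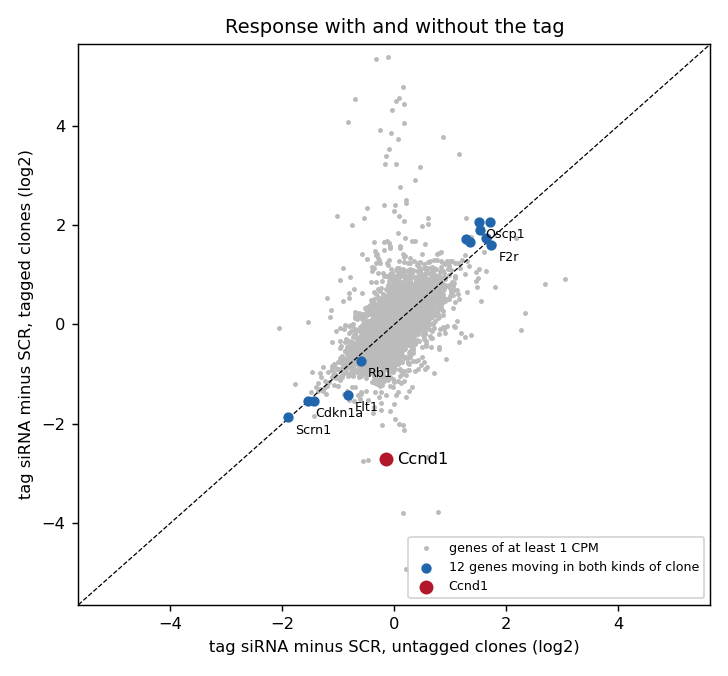
Response to tag siRNA in tagged clones against the response in untagged clones (both log2), for genes averaging 1 CPM or more; the dashed line marks equal responses. The 12 genes known from earlier results to move in both kinds of clone (blue) lie near the line, and Ccnd1 (red) lies at -2.70 tagged and -0.15 untagged.

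Some genes responded in both kinds of clone. Cdkn1a, which encodes the CDK inhibitor p21, measured 57.3, 22.1 and 17.3 CPM under SCR, FLAG and HA siRNA in tagged clone 12, and 82.9, 35.3 and 23.9 CPM in clone 14. It measured 71.1, 33.5 and 20.7 CPM in untagged clone 25 and 67.3, 26.3 and 17.7 CPM in clone 18. Every tag siRNA library lay below every SCR library in both kinds of clone. The responses were -1.53 tagged and -1.54 untagged, which left a difference of 0.005 (95% interval -0.38 to 0.39). F2r, the thrombin receptor, responded by 1.61 and 1.73, with a difference of -0.13 (95% interval -0.44 to 0.19). Taldo1, a transaldolase of the pentose phosphate pathway, responded by 1.66 and 1.36, and Scrn1 by -1.87 and -1.90. The 12 genes selected earlier for moving in both kinds of clone did not all move the same way. Their signed median response, 1.63 tagged and 1.32 untagged, is therefore not a typical response. Their differences ran from -0.59 for Flt1, a VEGF receptor, to 0.57 for Oscp1, and 0 of the 12 were called. For 8 of the 12 the interval lay within -1 to 1. That selection fixes the direction of both responses, so it is a description.

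Of the 12 genes of D cyclins, CDK4/6 and their inhibitors, Ccnd1 alone was called, and 7 differences were below 0, against 46% of all genes with at least 1 CPM. Without Ccnd1 the median of the other 11 was -0.11, against 0.02 for all genes. The other D cyclins did not pass the test. Ccnd2 measured 234, 230 and 173 CPM with SCR, FLAG and HA siRNA in tagged clone 12, and 611, 624 and 395 CPM in clone 14. It measured 688, 541 and 405 CPM in untagged clone 25 and 314, 170 and 239 CPM in clone 18. Its difference was 0.32 (SE 0.32, 95% interval -0.36 to 1.00), with the tagged and untagged levels overlapping. Ccnd3 differed by 0.04 (SE 0.26) and the kinases Cdk4 and Cdk6 by 0.08 (SE 0.16) and -0.24 (SE 0.44). Among the inhibitors, Cdkn1b (p27) differed by -0.20, Cdkn2a by -0.11, Cdkn2b by 0.003, Cdkn2c by -0.11, Cdkn2d by -0.30 and Cdkn1c by -0.40. None of these intervals excluded 0.

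The 13 pocket proteins and E2F factors lay between -0.27 (E2f7) and 0.19 (E2f6), with a median difference of -0.02 and 0 called. Rb1 itself was 15.8, 12.7 and 8.18 CPM with SCR, FLAG and HA siRNA in clone 12, and 12.7, 8.54 and 5.80 CPM in clone 14. In untagged clone 25 it was 13.8, 10.1 and 8.65 CPM, and in clone 18 it was 7.29, 5.21 and 4.21 CPM. Tag siRNA libraries lay below the SCR library in each clone, and the responses of -0.74 and -0.60 left a difference of -0.14 (SE 0.18). E2f1, an activating E2F factor, differed by 0.01 (SE 0.19). All 13 intervals lay within -1 to 1.

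Genes of DNA replication known as E2F targets and genes of mitosis, many of which are known to be controlled through a cell cycle homology region (CHR), form the next groups. Promoter stretches of 5 of them are shown because they carry the letters these factors are known for. The E2F letters searched were TTTCCCGC, TTTCGCGC, TTTGCCGC and TTTGGCGC and the CHR letters TTTGAA, on both strands, in the 250 bases before and 50 bases after each gene's start. Capitals mark every match to these letters, and in Mcm5 a pair of matches overlaps. The windows are from RefSeq, build GRCm38.p6, on the strand of the gene: Cdc6 at chr11:98907997-98908036 (plus), Mcm5 at chr8:75109340-75109379 (plus), Mcm7 at chr5:138172025-138172064 (minus), Mki67 at chr7:135716472-135716511 (minus) and Kif11 at chr19:37376342-37376381 (plus).
Cdc6: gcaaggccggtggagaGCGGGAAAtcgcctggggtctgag
Mcm5: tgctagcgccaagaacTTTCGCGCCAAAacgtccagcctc
Mcm7: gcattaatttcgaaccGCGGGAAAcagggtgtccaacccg
Mki67: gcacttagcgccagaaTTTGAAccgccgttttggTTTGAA
Kif11: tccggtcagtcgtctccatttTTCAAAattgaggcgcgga

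The E2F letters were found in 9 of the 28 E2F target genes with a promoter in the table (32.1%), against 2.32% of all 27025 promoters and 4.38% of the 9411 genes of at least 1 CPM with a promoter. The CHR letters were found in 15 of 21 mitotic genes (71.4%), against 18.1% of all promoters and 11.5% of those 9411 genes. The 9 target genes with the E2F letters had a median difference of -0.13, and those without it -0.10. The 15 mitotic genes with the CHR letters had a median of -0.14, as did those without. Promoters were present for 79.9% of genes of at least 1 CPM, so these shares leave out the rest, and no difference is compared over all genes.

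Of the 35 E2F targets, 0 were called, and 32 had a difference below 0, against 46% of all genes. Their median was -0.12, against 0.02 for all genes, and all 35 intervals lay within -1 to 1. The lowest was Pole, a DNA polymerase subunit, at -0.38 (SE 0.24), and the highest Ccne1, a cyclin E, at 0.06. Cdc6, which loads the MCM helicase onto replication origins, measured 91.5, 44.3 and 54.6 CPM with SCR, FLAG and HA siRNA in clone 12 and 64.2, 39.5 and 58.0 CPM in clone 14. It measured 64.2, 41.5 and 47.3 CPM in untagged clone 25 and 68.9, 43.3 and 70.2 CPM in clone 18. The SCR level of clone 12 was the highest of the 12 libraries. The difference was -0.25 (SE 0.18). Mcm5, a subunit of that helicase, was likewise highest in SCR clone 12, at 306 CPM against 191 and 231 CPM with FLAG and HA siRNA, and it differed by -0.17 (SE 0.16).

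The 26 mitotic genes had a median difference of -0.12, with 25 below 0 and 0 called. The lowest was Cenpf, a kinetochore protein, at -0.29 (SE 0.31). Bub1b, a spindle checkpoint kinase, differed by -0.28 (SE 0.17). Mki67, the proliferation marker Ki-67, was 334, 202 and 236 CPM with SCR, FLAG and HA siRNA in clone 12 but 312, 270 and 302 CPM in clone 14. In untagged clone 25 it was 288, 226 and 223 CPM, and in clone 18 it was 185, 163 and 251 CPM. Its difference was -0.25 (SE 0.25). Kif11, a spindle motor, differed by -0.16 (SE 0.20). The 15 genes of homologous recombination repair had a median of -0.15, with 13 below 0 and 0 called, from Brca2 at -0.38 (SE 0.31) to Rad51c at 0.22.

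The values of these 3 groups differed between the tagged clones, which was not tested. Clone 12 minus the untagged mean, in log2 CPM, was below 0 for 34 of the 35 E2F targets with a median of -0.24, and for 26 of the 26 mitotic genes with the same median of -0.24. In clone 14 the counts were 12 of 35 and 13 of 26, with medians of 0.02 and under 0.01 in size. For homologous recombination repair they were 13 of 15 in clone 12 and 8 of 15 in clone 14. Of all 11779 genes, 5026 were below 0 in clone 12 and 6008 in clone 14, with medians of 0.04 and -0.005. When SCR clone 12 was left out, the E2F target median was -0.00028 with 18 of 35 below 0, and 51.6% of all genes were below 0. The mitotic median was then -0.10 with 21 of 26 below 0, and 8 of 15 recombination genes were below 0, with a median of -0.02. Without the libraries of over 2% Rn45s, tagged HA clone 12 among them, the E2F target and mitotic medians were -0.08 and -0.04. With the siRNAs apart, the E2F target median was -0.14 with FLAG and -0.09 with HA siRNA. The E2F targets had a median tag siRNA response of -0.28 in tagged and -0.14 in untagged clones. For the mitotic genes these responses were -0.25 and -0.10. The cyclin D1 siRNAs minus the same tagged SCR libraries, with no untagged arm, gave -0.38 for the E2F targets and -0.36 for the mitotic genes. In the mCherry comparison, where every library received HA or FLAG siRNA, these medians were 0.03 and 0.10.

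**Figure D4:**
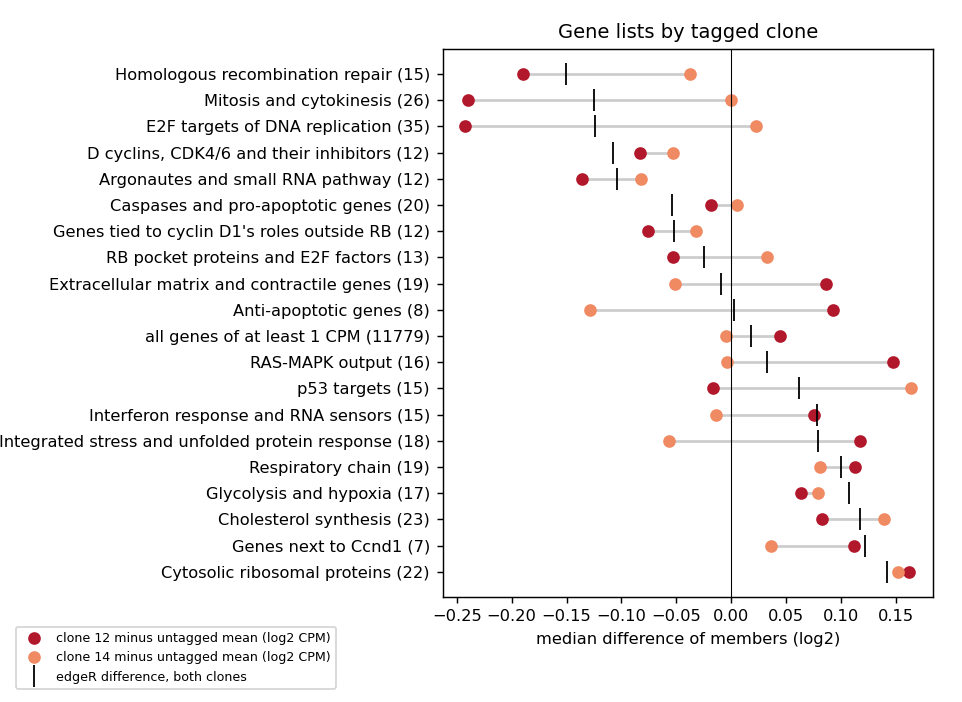
Median tagged minus untagged difference of each gene list (log2, members described in brackets) for clone 12 and clone 14, each minus the mean of the untagged clones, with a black tick for the edgeR difference of both clones. E2F targets and mitotic genes are at -0.24 in clone 12 and near 0 in clone 14, while cytosolic ribosomal protein genes are near 0.15 in both.

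Of 12 genes tied to cyclin D1 outside the RB pathway, 7 were below 0, the median was -0.05 and 0 were called. The median ran from -0.11 without untagged HA clone 25 to 0.07 without untagged HA clone 18, and 8 of the 12 intervals lay within -1 to 1. Thbs1, a matrix glycoprotein, differed by 0.46 (SE 0.26), and the receptor Notch1 by -0.46 (SE 0.33). Dicer1, which cuts microRNA precursors, differed by -0.07 (SE 0.20) and Stat3 by 0.03 (SE 0.21). Of the genes near Ccnd1, 7 were described, and they ran from Shank2 at -0.26 to Oraov1 at 0.26, with Cttn, an actin regulator, at 0.12 (SE 0.14).

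Of 23 caspases and pro-apoptotic genes, 20 reached 1 CPM, 12 of these were below 0, and 0 were called. The median was -0.05. The interval lay within -1 to 1 for 16 of the 20. Casp6, an effector caspase, differed by 0.28 (SE 0.16), and Bcl2l11, the BH3-only protein BIM, by -0.23 (SE 0.17). Apaf1, the apoptosome scaffold, differed by -0.11 (SE 0.21), Casp8, an initiator caspase, by -0.07 (SE 0.17) and Bax, a pore-forming protein of the mitochondrial membrane, by 0.11 (SE 0.22). Among 8 described anti-apoptotic genes the median was 0.002, with Bcl2 at -0.25 (SE 0.21), Mcl1 at 0.10 (SE 0.15) and Bcl2l1 at 0.07 (SE 0.14).

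Of 15 p53 targets, 10 were above 0, against 54% of all genes, and 0 were called. Btg2, an antiproliferative p53 target, was highest, at 0.66 (SE 0.27, edgeR unadjusted p 0.0266). It measured 11.3, 18.8 and 20.8 CPM with SCR, FLAG and HA siRNA in clone 12 and 31.7, 56.9 and 69.7 CPM in clone 14. In untagged clone 25 it was 53.1, 57.2 and 69.3 CPM, and in clone 18 it was 26.9, 29.3 and 34.0 CPM. All 4 tagged responses lay above all 4 untagged ones, as they did for 353 of all genes (3%). Mdm2, the p53 ubiquitin ligase, differed by 0.14 (SE 0.14). The 16 RAS-MAPK output genes had a median of 0.03, with Spry1, a feedback inhibitor, at 0.82 (SE 0.40) and Dusp6, an ERK phosphatase, at 0.09 (SE 0.18).

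Of the ribosomal protein, respiratory and cholesterol synthesis genes, 0 were called. For 22 cytosolic ribosomal protein genes the median difference was 0.14 with 1 below 0, and for 19 respiratory chain genes it was 0.10 with 0 below 0. With the siRNAs apart, the ribosomal and respiratory medians were 0.01 and 0.02 with FLAG siRNA and 0.26 and 0.21 with HA siRNA, a contrast that was not tested. The ribosomal median ran from 0.06 without untagged HA clone 18 to 0.25 without untagged HA clone 25, and the respiratory one from 0.01 to 0.24 without the same libraries. For 23 cholesterol synthesis genes the median was 0.12 with 5 below 0, and Sc5d, a sterol desaturase, was highest at 0.36 (SE 0.18). The cholesterol median ran from 0.04 without untagged SCR clone 25 to 0.17 without untagged FLAG clone 18. Glycolysis and hypoxia genes had a median of 0.11. Stress response genes had 0.08, and -0.01 without tagged SCR clone 12. Of 12 described Argonaute and small RNA genes, 11 were below 0 with a median of -0.10, and Ago3 was lowest at -0.75 (SE 0.61). That median was -0.03 with FLAG and -0.21 with HA siRNA, and ran from -0.24 without untagged HA clone 25 to -0.03 without tagged SCR clone 12. Extracellular matrix and contractile genes had a median of -0.01.

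Interferon response genes scattered widely. Of 22, 15 reached 1 CPM, with differences from -1.48 to 1.49, a median of 0.08 and 0 called. Oasl1, an interferon-induced gene, measured 0.74, 2.75 and 2.90 CPM with SCR, FLAG and HA siRNA in clone 12 and at most 0.0471 CPM in clone 14. Its difference was 1.49 (SE 0.47), with 1.38 for clone 12 and 0.02 for clone 14 against the untagged mean. Its relative Oasl2, at or below 1.03 CPM in the tagged clones, differed by -1.48 (SE 0.61). Of the 15, 3 had an unadjusted p under 0.05, the third being the chemokine Cxcl10, against 1.38% of all genes averaging 1 CPM or more.

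The genes next in line after Ccnd1 were those whose 4 tagged responses did not overlap the 4 untagged ones. There were 353 above and 208 below (3% and 1.77% of genes). The 10 of each with the smallest p were selected, and none was called, the lowest edgeR adjusted p being 0.298. Of these 20, 13 had a mean under 10 CPM, 8 had a library at 0 counts, and in 6 the untagged response was the larger.

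**Figure D5:**
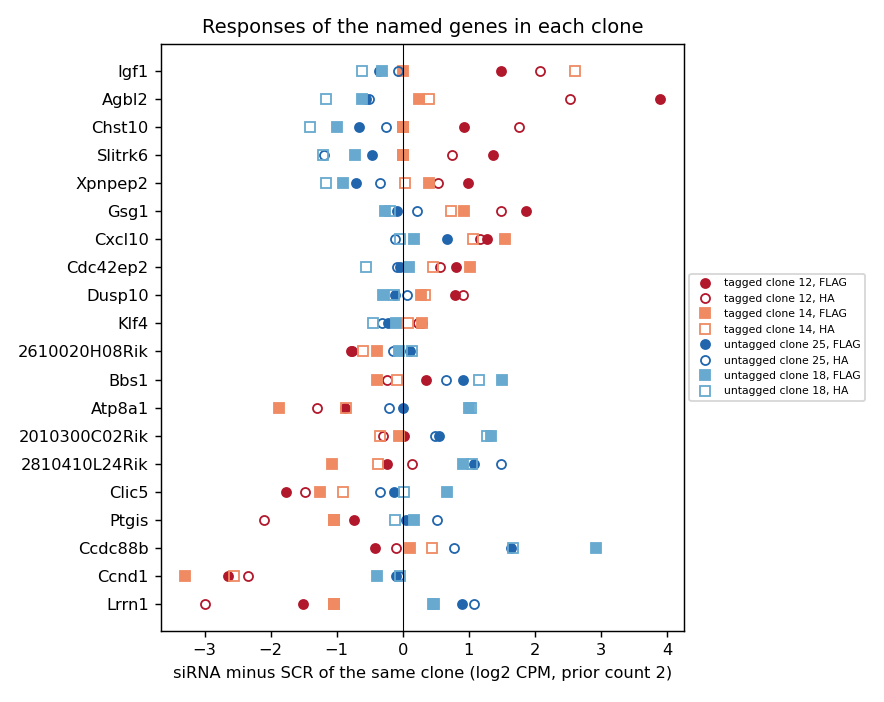
Response of each named gene in each clone with FLAG siRNA (filled) and HA siRNA (open), as log2 CPM minus SCR of the same clone with a prior count of 2. Red and orange are tagged clones 12 and 14, dark and light blue untagged clones 25 and 18. Tagged and untagged points do not overlap, by the rule that selected the genes.

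Among the higher ones, Dusp10, a phosphatase of stress-activated MAP kinases, had a difference of 0.69 (SE 0.20), or 0.44 without tagged SCR clone 12. It measured 9.59, 16.6 and 18.0 CPM with SCR, FLAG and HA siRNA in clone 12, and 19.9, 24.2 and 25.3 CPM in clone 14. In the untagged clones it stayed between 15.6 and 19.9 CPM. Cdc42ep2, an effector of the GTPase CDC42, had 0.85 (SE 0.28), with tagged group means of 9.30, 17.2 and 13.4 CPM under SCR, FLAG and HA siRNA (SD 3.90, 5.55 and 6.22, n = 2). Klf4, a zinc finger transcription factor, had 0.49 (SE 0.17), from responses of 0.23 tagged and -0.27 untagged. Cxcl10 had 1.17 (SE 0.40), but at 3, 8 and 13 raw counts in clone 14. It was 1.77 without tagged FLAG clone 12.

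Some of the named genes were nearly off in the tagged clones, so raw counts are given and no fold is read from them. Library totals differ, so raw counts of different libraries are not on the same scale. Igf1, a growth factor, had 0 counts with SCR in both tagged clones. In clones 12 and 14 it had 4 and 0 with FLAG and 4 and 15 with HA siRNA. Untagged clone 25 had 329 to 501 counts and untagged clone 18 had 39 to 48. Agbl2 had 157 to 274 counts in untagged clone 25 and 4 to 9 in untagged clone 18. It had 0, 31 and 6 counts with SCR, FLAG and HA siRNA in clone 12 and at most 3 in clone 14. The 0 is in the SCR library of clone 12 that stood apart. Without that library the fitted log2 difference of Agbl2 was 1.75 in place of 5.23. No tagged response of Chst10 can be estimated without it, because clone 14 had 0 counts of Chst10 with SCR, FLAG and HA siRNA. Chst10 and Slitrk6, on the higher side, and Lrrn1, on the lower side, also had libraries at 0. Clic5, on the lower side, had 33, 4 and 3 counts with SCR, FLAG and HA siRNA in clone 12 and 10, 2 and 7 in clone 14. Scaled by library size these were 0.39, 0.083 and 0.11 CPM in clone 12 and 0.25, 0.076 and 0.11 CPM in clone 14. Untagged clone 18 had 55 to 100 counts and clone 25 had 2010 to 2631.

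In 4 of the 10 lower genes the untagged response was the larger one. Ccdc88b had -2.37 (SE 0.61), with an untagged response of 2.27 and a tagged one of -0.10, and in untagged clone 18 it measured 6.16, 47.1 and 19.6 CPM with SCR, FLAG and HA siRNA. In untagged clone 25 it had 2, 9 and 5 raw counts. The difference was -1.74 without tagged SCR clone 12 and -3.18 without tagged SCR clone 14. Bbs1, a subunit of a ciliary trafficking complex, had -1.09 (SE 0.34), from an untagged response of 1.06 and a tagged one of -0.03. 2610020H08Rik, a protein-coding gene named by its clone, had -0.67 (SE 0.26) and measured 3.58 to 4.15 CPM with tag siRNA in the tagged clones against 5.44 and 6.81 CPM with SCR.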

How the data were processed

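RNA was extracted the morning after overnight transfection, and stranded poly(A) libraries were sequenced as single reads, per the labels' protocols. The submitters' processing notes name HTSeq 0.6.1p1, Bowtie2 2.2.3, TopHat2 2.0.13, CASAVA 1.8.2 and FastQC, and the mm10 build. Neither strand setting nor annotation is stated there, and reads of overlapping, antisense or near-identical genes may be mixed. Raw counts for each gene in 28 libraries were deposited by the authors, and all columns were used. The 22 rows without a gene ID held at most 0.0137% of a library.

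The counts were fitted in R 4.3.3 with edgeR 4.0.16: filterByExpr, TMM and a robust quasi-likelihood fit of 28 libraries in 15 groups. The fit had 17 coefficients and 11 residual degrees of freedom. The clone was a block, because the siRNAs share clones within the tagged and within the untagged libraries, though not between them. The 12 same-clone pairs of libraries deviated together, with a lowest correlation of 0.902. Tests used Benjamini-Hochberg adjustment over 15099 genes, called under 0.05, and genes averaging 1 CPM or more over the 12 libraries were described. CPM used TMM size factors, and log2 CPM a prior count of 2. The 66 pairs of the 12 libraries differed beyond sampling noise (chi-square over degrees of freedom at least 28.3). Named genes were Ccnd1, called genes, the 10 higher and 10 lower non-overlapping genes with the smallest p, and members of each list, of which a few are not reported here. The members and lists were chosen with earlier results of these data known. Promoter letters came from RefSeq GRCm38.p6. DESeq2 1.42.0 was an alternative. The fit was tested on data simulated from its own estimates. There 100 genes were given a log2 difference of 1, another 100 a difference of 2, and all other genes none. The fit called 47 of the first 100 and 92 of the second. Of 150 calls, 11 were false. With that many genes changed together, the adjusted threshold is easier to pass than where 1 gene is called. These shares can therefore overstate what would be called in the real data. Many true 2-fold differences could therefore go uncalled.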

Additional observations from a re-analysis of the deposited data

Results flagged for a closer look

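Ccnd1 was flagged because its response to tag siRNA differed between tagged and untagged clones by a test of the difference itself. The difference was -2.55 on the log2 scale, with an edgeR adjusted p of 0.000804, and all 4 tagged responses lay below all 4 untagged ones.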

How the results depend on the processing

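The alternatives changed normalization, fit, filter, tool, clone block and Rn45s handling, or left out each of the 12 libraries in turn. Ccnd1 kept its direction in all of them, from -2.70 to -2.42 when 1 library was left out, and lost its call only without untagged SCR clone 25 (-2.49). Without the replicate block it was -2.56, the pooled and FLAG calls were still 1 gene and the HA call was 0. The pooled count of called genes ran from 0 to 28 when 1 library was left out, the FLAG count from 0 to 24 and the HA count from 0 to 8. DESeq2 gave 2 calls for FLAG siRNA, and leaving out the libraries with over 2% Rn45s gave 0 calls for HA siRNA, with 475 genes at an unadjusted p under 0.05. Genes averaging at least 10 CPM over the 12 libraries with a difference of at least 2-fold numbered 23. Their number was 47 without the libraries with over 2% Rn45s and 24 to 78 when 1 library was left out. The highest number, as with genes called, came without tagged SCR clone 14. That leaves SCR clone 12, the library that stood apart, as the only tagged SCR library. With every group mean at 10 CPM or more, Ccnd1 alone reached 2-fold in the main fit. Of 420 list medians under the 21 alternatives, 41 had the other sign, 33 of them with 1 library left out, and these came from 11 lists. The E2F target median ran from -0.20 to -0.00028 and the mitotic one from -0.19 to -0.06 when 1 library was left out. The cause of these changes was not tested. The median SE of the difference was 0.40 for genes between 1 and 10 CPM, 0.20 between 10 and 100 CPM and 0.17 at 100 CPM or more.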
